A study of Mus musculus with 15 samples.

Results

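The comparison described here sets B cells given anti-IgM and CpG together against B cells kept in media, over all genes on the array. Its members were found by title: the 3 arrays titled anti-IgM+CpG and the 3 titled Media alone, 6 of the 15 arrays in the series. Of 18193 genes with a single symbol in the value table, 13159 passed a filter on low signal and were tested. The cells came from AM-14 mice, which carry a transgenic rheumatoid factor as their B cell receptor, an antibody that binds the body's own IgG. Media cells received no agent. Anti-IgM was given as an F(ab')2 fragment of goat antibody to mouse IgM, and CpG as the phosphorothioate oligo-deoxynucleotide 1826. The remaining 9 arrays, 3 for anti-IgM alone, 3 for CpG alone and 3 for PL2-3, a chromatin immune complex, entered the fit. The treatment field of the anti-IgM+CpG arrays reads none, as it does for media, while their titles and descriptions name both agents, and the titles were followed. Doses, times of culture, the sex and age of the mice and the way the B cells were purified are not given in the labels. Separate mice or cultures are not named as the source of replicate arrays either, so each p-value rests on array-to-array spread, which may be technical.

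Anti-IgM crosslinks the membrane IgM of a B cell. The signalling chains Cd79a and Cd79b then recruit the kinases Syk and Btk, and the signal runs through phospholipase C to calcium, to the MAP kinases and to NF-kB. CpG DNA is bound inside the cell by TLR9, which uses the adaptor Myd88, the IRAK kinases and Traf6 to reach NF-kB and the interferon regulatory factors. Together the receptors are known to drive B cells from rest into growth, cytokine secretion and differentiation, and in AM-14 cells their joint engagement by immune complexes is a model of how autoreactive B cells are activated.

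Every value below is a probe set signal, a linear brightness, or a log2 change between groups in that signal after 75.1 units were added to it. Changes are limma estimates ± SE with 3 arrays in each group. The words rose and fell are used of genes with a limma adjusted p under 0.05. Trimmed mean signals were 1499.4 to 1499.9 on all 15 arrays, while array medians were 412 to 514 in media and 266 to 303 with both agents.

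Per the labels, the RNA of replicates 1 and 2 was labelled with an Enzo kit and that of replicate 3 with an Ambion kit. The beta-actin control has probe sets at its 5' and 3' ends, and the ratio of their signals, which falls as labelled RNA gets shorter, was 0.335 to 0.747 on the 8 Enzo arrays of the other 4 groups and 0.108 to 0.201 on their 4 Ambion arrays. With both agents the ratio was 0.105, 0.193 and 0.177, so replicate 2 lay in the Ambion range and replicate 1 just below it, despite their Enzo label. The media arrays had 0.445, 0.440 and 0.153. The fit therefore used a class read from this ratio, low under 0.25 and high otherwise, and media replicate 3 was the only media array in the same class as the combination. Of the 151 genes given with a change against media, 131 were called with this class and 135 with the labelled kit as the term, 131 of them with both. Genes named by size, and the largest changes named per list, had to be called with both terms, so this agreement was in part fixed in advance. Over all genes 4324 were called with the class, and 3844 with both terms in the same direction. A change with the labelled kit is printed beside a gene where the call differed or a called change differed by over 1.5 times, and counts with the labelled kit stand beside those of each list where they differed.

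**Figure D1:**
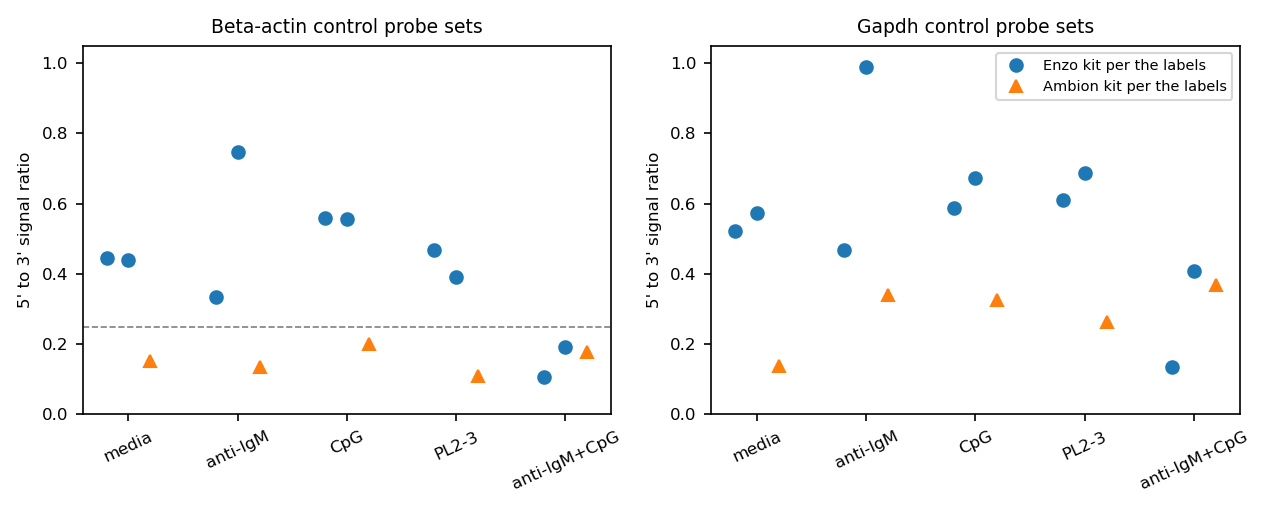
The 5' to 3' signal ratio of the beta-actin (left) and Gapdh (right) control probe sets on each of the 15 arrays, by group, with circles for arrays labelled Enzo and triangles for arrays labelled Ambion; the dashed line is the bound of 0.25 between the classes. The 2 anti-IgM+CpG arrays labelled Enzo sit at 0.105 and 0.193 in the left panel, below all 8 Enzo arrays of the other groups.

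The anti-IgM+CpG arrays differed from media in markers of other cells as well. Xist, the RNA that coats an inactive X chromosome, had signals of 10041, 9532 and 4252 in media and 589, 391 and 321 with both agents, and at least 4252 on each of the 12 other arrays. The Y-linked Eif2s3y had 2335, 1933 and 4782 in media and 2929.8, 4769 and 2486 with both agents, and was not called. The sex of the mice is not in the labels, and its part in the results was not tested. Over all tested genes, deviations from the group mean correlated at 0.121 to 0.684 in the 18 pairs of arrays with the same replicate number among the other 4 groups, and at -0.194 to 0.074 in the 12 pairs with an anti-IgM+CpG array. The 3 combination arrays thus stood apart from the other 12 in Xist. In the control ratio they stood apart from the 8 Enzo arrays and lay in or just below the range of the 4 Ambion arrays. Correlations among the other 4 groups also hold the labelling class, so this pattern alone does not set the combination arrays apart. Whether the combination arrays came from a separate experiment is not in the labels. In every comparison below such a difference and the effect of the agents cannot be told apart. Myeloid markers fell in 18 of 23 tested members (19 with the labelled kit) and none rose, and 6 fell without media replicate 3. Their summed signal was 186100, 187600 and 309100 on the media arrays and 183400, 33960 and 48320 with both agents, where replicate 1 stood apart. The neutrophil gene S100a8 had 39393, 39334 and 89505 in media and 64079.5, 3035 and 9882 with both agents. Summed T cell markers ran from 13610 to 17870 in media and from 3902 to 8086 with both agents, and summed B cell markers from 223700 to 309300 and from 77750 to 93040. Summed NK cell markers were 16940, 15840 and 13340 in media and 12490, 5516 and 4576 with both agents, and summed erythroid and platelet markers 124700, 118700 and 206000 against 152300, 66080 and 67900, with replicate 1 of the combination apart in both. No tested marker was at 0 on any array, but members that failed the filter on low signal are not covered. A signal above 0 does not show that a cell type was present. In these bulk samples fewer cells of a type and less RNA per cell cannot be told apart, and the part of other cells in the results below was not tested.

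With both agents, cytokine, growth and ribosome-building genes were higher than in media and genes of the resting B cell were lower. Of 13159 genes, 1867 rose and 2457 fell, 4324 or 32.9% in all (14.2% higher and 18.7% lower), and 5426 had an unadjusted p under 0.05. At least a 2-fold change was seen in 885 of the genes that rose and 1592 of those that fell, and at least a 4-fold change in 148 and 352. The median change over all genes was -0.20. Signals of the 3 media and the 3 anti-IgM+CpG arrays did not overlap for 6619 genes, 50.3%. With the labelled kit as the term 5520 genes (41.9%) were called, and 3844 (29.2%) were called in the same direction with both terms. Among the arrays with a low ratio alone 2265 genes were called, in a fit with 1 media array that is assumed to vary like the 3 combination arrays, which give all of its spread. Leaving out media replicate 3 gave 2869 genes, and leaving out anti-IgM+CpG replicate 1 gave 4546. That combination array had the highest summed myeloid signal of its group, and a lower sum than each media array. Shifting all arrays to one median moved the median change to 0.10 and the share of called genes that were higher from 43.2% to 64.3%, so directions near 0 depend on the scaling.

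**Figure D2:**
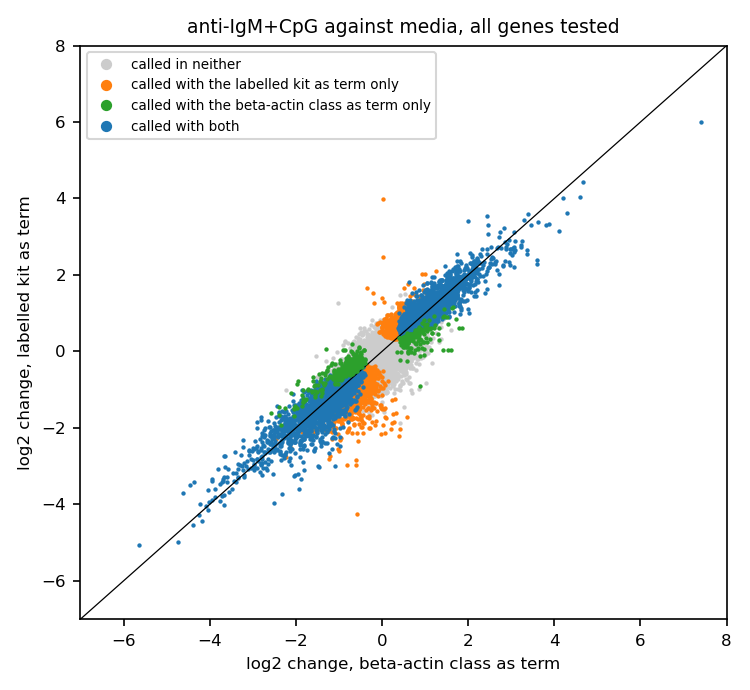
Log2 change of each of the 13159 genes in anti-IgM+CpG against media with the beta-actin class as the term (horizontal) and with the labelled kit as the term (vertical); 1 point per gene, the line marks equal values and colours show where a gene was called. The 3844 genes called with both terms lie along the line and the 5520 called with the labelled kit reach further toward negative values.

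The largest rises were cytokines, a chemokine pair, inhibitors of cytotoxic proteases and T-bet. The 12 largest among genes whose arrays did not overlap were Ifng, Xcl1, Il15ra, Ccl3, Tbx21, Il2, Il6, Serpinb9b, Serpinb9, Mir155hg, Maff and Zc3h12c. Interferon gamma, encoded by Ifng, had signals of 25, 31.2 and 14.2 in media and 21857, 3948 and 2739.7 with both agents. All 3 media values were below the 75.1 added before the log, and replicate 1 of the combination was several times its other replicates. Ifng rose by 7.40 ± 0.90 (limma adjusted p = 1.34e-05, 6.0 with the labelled kit). With media at this level the size rests on the units added, and it ran from 5.68 to 10 over 24 alternatives, each of which called it. NK cells and T cells are known sources of Ifng and Xcl1, and the part of such cells in these changes was not tested. The transcription factor T-bet, encoded by Tbx21, had 965, 663 and 2731 in media and 23768, 23049 and 16567 with both, with the groups far apart, and rose by 4.21 ± 0.53 (limma adjusted p = 1.83e-05). T-bet is known to drive Ifng in lymphocytes and switching to IgG2a in B cells.

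Xcl1, which encodes the chemokine lymphotactin, had 655, 673 and 456 in media and 7528, 19325 and 20096 with both agents, lowest on replicate 1, and rose by 4.67 ± 0.34 (limma adjusted p = 1.65e-07). Signals of Ccl3, a chemokine for macrophages and T cells, were 11757, 13841 and 2555 in media and 99994, 91312 and 85637 with both. The combination arrays of Ccl3 lay close together and media replicate 3 was the lowest array (a rise of 4.30 ± 0.31, limma adjusted p = 1.65e-07). Il2, the T cell growth factor gene, had 111, 253 and 19.8 in media and 1269, 1541 and 1799 with both, and rose by 4.12 ± 0.44 (3.15 with the labelled kit). Il6, a cytokine of plasma cell differentiation, went from 794, 608 and 155 to 5863, 5423 and 4238, a rise of 3.87 ± 0.36 (limma adjusted p = 1.34e-06). Media replicate 3 was again the lowest array for both Il2 and Il6. Il15ra, the receptor chain that presents IL-15 to neighbouring cells, had 103, 539 and 62.5 and 3773, 3705 and 4596 and rose by 4.59 ± 0.41, or by 2.80 as the mean of its probe sets.

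Serpinb9, an inhibitor of granzyme B, had 1774, 2213 and 1573 in media and 25208, 17902 and 17491 with both agents, and rose by 3.61 ± 0.24. Its relative Serpinb9b had 883, 829.6 and 994 and 6746, 10069 and 12927 and rose by 3.82 ± 0.30. For both serpins the spread within a group was small beside the distance between groups. Zc3h12c, of the family of RNA-cleaving zinc finger proteins that restrain inflammatory messages, went from 804, 688 and 419.6 to 5827, 8419 and 6305, a rise of 3.45 ± 0.23. Maff, a small Maf transcription factor, went from 922, 1106 and 80.8 to 2460.1, 2695 and 2976. It rose by 3.59 ± 0.36 against 2.29 with the labelled kit, and media replicate 3 was far below the other media arrays.

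Mir155hg is the precursor transcript of miR-155, a microRNA made in activated B cells that is needed for germinal centre responses. Its signals were 805, 840.1 and 48.5 in media and 1568, 4026 and 2067 with both agents, a rise of 3.59 ± 0.44 (2.39 with the labelled kit), with media replicate 3 the lowest array. The arrays measured the host transcript and not the mature microRNA, which lies at chr16:84714143-84714165 on the plus strand of GRCm38.p6. It is shown, from RefSeq, because its seed, bases 2 to 8 in capitals, sets which messages it can pair with.
mmu-miR-155-5p: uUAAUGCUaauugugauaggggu

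**Figure D3:**
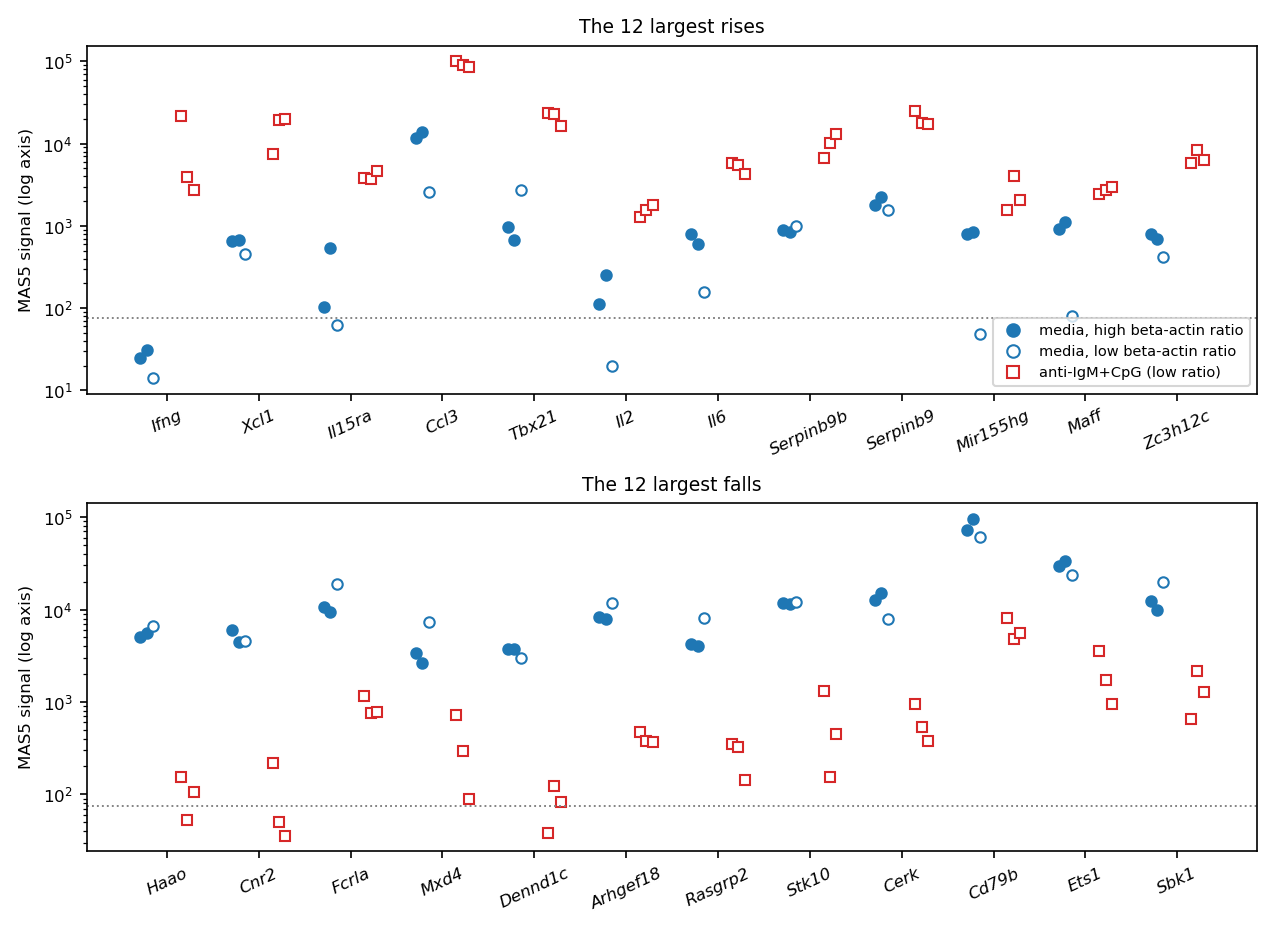
Signal of each of the 3 media arrays (circles) and the 3 anti-IgM+CpG arrays (squares) for the 12 largest rises (top) and the 12 largest falls (bottom), on a log axis; open symbols have a low beta-actin ratio and the dotted line is the 75.1 units added before the log. The groups are separate for all 24 genes because the rule that named them required it. Media replicate 3, the open circle, is well below the other media arrays for Maff and Mir155hg.

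Of 27 tested cytokines and chemokines, 15 rose and 2 fell (14 and 2 with the labelled kit), with a median change of 0.97 against -0.20 over all genes. Besides those above, the chemokines Ccl4 (3.37 ± 0.28) and Cxcl10 (3.26 ± 0.59) and the cytokine genes Il12b (2.44 ± 0.42) and Tnf (2.23 ± 0.38) rose. Ltb, the lymphotoxin chain that B cells use to shape lymphoid tissue, fell by 3.82 ± 0.43, from 32959.5, 31358 and 48372 to 10058, 2825 and 2712. Il12a, the partner chain of Il12b in IL-12, changed by -1.63 ± 0.31 and fell, and was -1.04 and not called with only the groups compared and the labelling class kept.

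NF-kB is a family of transcription factors that both receptors reach. Of 18 tested subunits and targets, 10 rose and 3 fell (the same counts with the labelled kit), with a median of 0.75. Without media replicate 3 or without anti-IgM+CpG replicate 3, 1 fell. Nfkbiz, a nuclear co-regulator of NF-kB that Il6 induction depends on, had 7182, 5745 and 4013 in media and 32714, 39151 and 30529 with both agents and rose by 3.06 ± 0.21. Cflar, the caspase-8 inhibitor FLIP, rose by 1.91 ± 0.24, the inhibitor Nfkbib by 1.81 ± 0.14 (1.06 as the mean of its probe sets), and the adhesion molecule Icam1 by 1.35 ± 0.19. The subunit Rel rose by 1.14 ± 0.21, and was 0.38 and not called on arrays labelled Enzo alone. Birc3 (-0.90 ± 0.20) fell, and was -0.60 and not called when arrays were shifted to one median, while Rela (0.26), Relb (-0.01) and Nfkbia (0.33) did not pass the test.

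Promoters of these genes were searched for the NF-kB core GGGNNTTTCC on both strands, in the bases from 250 before to 50 after each RefSeq start in GRCm38.p6. The core was in 1.63% of all 32851 windows and in at least 1 window of 1.89% of 27025 genes. It was in 4 of 16 NF-kB genes in the promoter table (Tnfaip3, Rel, Nfkbia and Nfkb2) and in 3 of 18 cytokine genes (Csf1, Il6 and Ltb). Il6 and Rel, which rose, and Ltb, which fell, are shown because they carry the same core and moved in opposite directions. The Il6 sequence is chr5:30012864-30013113 on the plus strand, that of Rel chr11:23770970-23771219 on the minus strand and that of Ltb chr17:35194257-35194506 on the plus strand. Each ends at the base before the start of the gene, with the match in capitals at -44, -91 and -87.
Il6: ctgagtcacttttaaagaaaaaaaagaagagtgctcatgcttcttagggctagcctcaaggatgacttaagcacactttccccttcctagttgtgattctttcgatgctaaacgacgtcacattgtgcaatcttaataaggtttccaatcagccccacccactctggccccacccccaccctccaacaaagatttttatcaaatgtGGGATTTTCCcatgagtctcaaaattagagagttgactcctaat
Rel: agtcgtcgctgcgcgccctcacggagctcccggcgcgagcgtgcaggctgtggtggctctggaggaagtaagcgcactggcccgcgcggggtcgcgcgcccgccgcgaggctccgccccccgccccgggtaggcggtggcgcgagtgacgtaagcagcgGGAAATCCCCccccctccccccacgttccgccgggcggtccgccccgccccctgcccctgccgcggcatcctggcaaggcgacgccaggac
Ltb: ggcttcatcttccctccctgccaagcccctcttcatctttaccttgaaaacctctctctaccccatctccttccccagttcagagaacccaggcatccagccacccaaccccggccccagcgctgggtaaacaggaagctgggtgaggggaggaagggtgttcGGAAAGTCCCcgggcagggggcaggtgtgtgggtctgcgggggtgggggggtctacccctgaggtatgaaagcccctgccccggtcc

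Interferon-stimulated genes are switched on by STAT and IRF factors and restrict viruses. Of 28 tested members, 14 rose and 0 fell (also with the labelled kit), with a median of 1.15, and 1 fell without anti-IgM+CpG replicate 1. Mx2, a dynamin-like GTPase, had 93.3, 166 and 79.3 in media and 1912, 880 and 1286 with both agents and rose by 3.08 ± 0.40. Bst2, or tetherin, which holds budding viruses on the cell surface, went from 2282, 1766 and 1364 to 20145, 10647 and 7829.6 and rose by 2.68 ± 0.37. In both genes replicate 1 of the combination was the highest array. The transcription factor Irf1 rose by 2.71 ± 0.33. Irgm1, a GTPase of defence within cells, rose by 2.18 ± 0.34, and Igtp of the same family by 2.15 ± 0.43. The remaining 14 members did not pass the test, among them the antiviral genes Rsad2 (0.21), Oas2 (0.01) and Ifit3 (0.16).

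The core TTTCNNTTTC of interferon response elements was in 3.44% of all promoter windows and in 3.99% of genes, and in 13 of the 21 interferon-stimulated genes in the table. The windows of Bst2 (chr8:71537473-71537722, minus strand) and Irgm1 (chr11:48871421-48871670, minus strand) are shown because each holds 2 overlapping copies that read on the opposite strand. In Bst2 they lie at -130 and -124 and in Irgm1 at -30 and -24.
Bst2: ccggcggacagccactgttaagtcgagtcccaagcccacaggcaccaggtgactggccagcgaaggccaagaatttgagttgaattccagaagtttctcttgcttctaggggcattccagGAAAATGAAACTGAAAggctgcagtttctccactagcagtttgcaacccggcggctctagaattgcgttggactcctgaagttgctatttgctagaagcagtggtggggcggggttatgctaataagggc
Irgm1: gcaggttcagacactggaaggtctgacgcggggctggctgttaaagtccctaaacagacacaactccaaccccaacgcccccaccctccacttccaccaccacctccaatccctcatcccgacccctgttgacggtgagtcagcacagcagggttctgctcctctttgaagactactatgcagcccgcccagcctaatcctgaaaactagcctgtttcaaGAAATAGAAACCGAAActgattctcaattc

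Cytokine receptors and their feedback genes changed in both directions. Of 26 tested members, 7 rose and 6 fell (5 and 8 with the labelled kit), with a median of -0.14 that turned to 0.16 when arrays were shifted to one median. Il2ra, the high-affinity chain of the IL-2 receptor, had 1593, 1850.2 and 565 in media and 5551, 10125 and 10506 with both agents and rose by 3.22 ± 0.30. The inhibitors Socs1 and Socs3 rose by 3.02 ± 0.40 and 2.85 ± 0.18, Cish by 1.79 ± 0.24, and the signal transducer Stat5a by 2.38 ± 0.20. Both chains of the interferon gamma receptor fell, Ifngr1 (-1.20 ± 0.24) and Ifngr2 (-1.09 ± 0.24), and so did both chains of the type I receptor, Ifnar1 (-0.96 ± 0.20) and Ifnar2 (-0.85 ± 0.25). When arrays were shifted to one median, 3 members fell and neither type I chain was called (-0.66 and -0.55). Ifnar2 was not called either without media replicate 3 (-0.41), without anti-IgM+CpG replicate 3 (-0.76) or as the mean of its probe sets (-0.46).

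The STAT core TTCNNNGAA was in 8.3% of windows and 9.55% of genes, and in 4 of 23 members of this list in the table (Cish, Socs3, Ifnar1 and Ifnar2). Socs3, a STAT3 target that blocks IL-6 receptor signalling, is shown because both it and Il6 rose: its signals were 2753, 2577 and 1561 in media and 11956, 11067 and 12371 with both agents. The sequence is chr11:117969367-117969616 on the minus strand, with the match at -154.
Socs3: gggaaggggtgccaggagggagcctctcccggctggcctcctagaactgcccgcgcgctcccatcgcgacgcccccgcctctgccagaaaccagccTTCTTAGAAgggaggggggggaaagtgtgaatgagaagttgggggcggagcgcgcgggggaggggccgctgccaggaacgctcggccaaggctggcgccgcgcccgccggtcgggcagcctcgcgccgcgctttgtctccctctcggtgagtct

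Immediate early genes are induced within minutes of receptor signalling without new protein synthesis. Of 24 tested, 9 rose and 4 fell with a median of 0.35, and with the labelled kit 6 rose and 8 fell with a median of -0.15, so the direction of this list as a whole depended on the labelling term. Myc, the master regulator of cell growth, had 10047, 10004 and 3099.7 in media and 36914, 29760.3 and 31551 with both agents, with media replicate 3 the lowest array. It rose by 2.96 ± 0.20 (limma adjusted p = 1.09e-07, 2.25 with the labelled kit). The nuclear receptor Nr4a3 rose by 3.07 ± 0.37, or by 2.04 without media replicate 3 and by 0.74 as the mean of its probe sets. The AP-1 factor Fosl1 rose by 2.57 ± 0.30 (1.30 as the mean of its probe sets) and Egr2 by 2.07 ± 0.24. The antiproliferative gene Btg2 fell by 2.27 ± 0.15. Egr1 (0.39) and Fos (-0.53) did not pass the test. With the labelled kit Fos was -1.07 and called (limma adjusted p = 0.00307) and Egr1 was -0.39 and not called. Egr1 was 0.65 and called without media replicate 3, Fos -0.63 and called without media replicate 2, and on arrays labelled Enzo alone Egr1 was -0.58 and called.

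Of 22 tested surface molecules of activation, 11 rose and 4 fell (9 and 6 with the labelled kit), with a median of 0.63. Without media replicate 3, 1 fell. Cd274, the checkpoint ligand PD-L1, had 4059, 4384 and 1658 in media and 11219, 10177 and 10303 with both agents and rose by 2.72 ± 0.24 (1.74 with the labelled kit). Its relative Pdcd1lg2 rose by 1.87 ± 0.24 and the costimulatory receptor Cd40 by 1.45 ± 0.31, though Cd40 was 0.77 and not called without media replicate 3. Icosl, the ligand through which B cells costimulate follicular helper T cells, fell by 1.90 ± 0.28.

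Of 23 tested members of the Toll-like receptor pathway, 3 rose and 7 fell (4 and 7 with the labelled kit). Over all genes 14.2% rose and 18.7% fell. The median of the list, -0.09, turned to 0.21 when arrays were shifted to one median. Tlr7, the receptor for single-stranded RNA, had 1283, 878 and 696 in media and 2370.3, 3188 and 3213 with both agents and rose by 1.98 ± 0.25. Tlr9, the receptor for CpG, changed by -0.18 and Myd88 by 0.10, and neither passed the test. Irak3, a kinase-dead brake on the pathway, fell by 2.28 ± 0.28, and so did the surface receptors Tlr1 (-2.09 ± 0.20) and Tlr6 (-1.68 ± 0.33). Unc93b1, the chaperone that carries Tlr9 and Tlr7 to endosomes, changed by -1.26 ± 0.14 and fell.

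Most genes of the B cell receptor and its signalling fell. Of 25 tested chains and signalling genes, 17 fell and 2 rose (15 and 1 with the labelled kit), with a median of -0.94. Cd79b, the signalling chain Ig-beta, had 73181, 95400 and 60862 in media and 8175, 4753 and 5589 with both agents and fell by 4.03 ± 0.39 (limma adjusted p = 1.7e-06). The lowest media array stood far above the highest combination array. Its partner Cd79a fell by 2.24 ± 0.29. The kinases Syk (-2.61 ± 0.20) and Btk (-1.75 ± 0.18) fell. The inhibitory receptors fell too: Fcgr2b, the Fc receptor that damps B cells bound by immune complexes, went from 9091, 9486 and 11081 to 1626, 727 and 606 (-3.68 ± 0.32), and Cd22 fell by 2.74 ± 0.35. Inpp5d, the phosphatase SHIP that acts below Fcgr2b, fell by 3.33 ± 0.22.

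Transcription factors and surface proteins of B cell identity fell in 20 of 24 cases and rose in 1 (19 and 1 with the labelled kit), with a median of -1.34. Fcrla, an intracellular Fc receptor-like protein of B cells, had 10582, 9306 and 18982 in media and 1150.1, 764 and 786 with both agents and fell by 4.62 ± 0.27. Ets1, which holds back plasma cell differentiation, went from 29918, 33359 and 23819 to 3576, 1732 and 953 and fell by 4.01 ± 0.38. In Ets1 replicate 1 of the combination was the highest of its 3 arrays and still far below media. The adaptor Bank1 (-3.76 ± 0.27), the IgM Fc receptor gene Fcmr (-3.69 ± 0.27) and the lineage factors Ikzf1 (-2.29 ± 0.28), Ebf1 (-0.97 ± 0.26) and Spib (-1.14 ± 0.21) fell. Ebf1 was -2.25 with the labelled kit, -0.90 and not called without media replicate 3, and -0.60 and not called as the mean of its probe sets. Tnfrsf13c, the receptor for the survival factor BAFF, was the 1 member that rose (0.71 ± 0.20), and was 0.45 and not called with quantile normalization. Markers of marginal zone B cells fell in 9 of 14 cases (10 with the labelled kit) and rose in 1, Sema7a (1.55 ± 0.17, or 0.96 as the mean of its probe sets), and the complement receptor Cr2 (-1.43 ± 0.22) was among those that fell. The summed signal of this list was 148900, 157600 and 153500 in media and 110600, 52890 and 47980 with both agents, where replicate 1 again stood apart. The B cell marker list, which shares members with these lists, fell in 7 of 9 cases.

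Of 13 tested genes of class II antigen presentation 8 fell and 1 rose (the same counts with the labelled kit), with a median of -1.52. Among those that fell were H2-Ob (-2.88 ± 0.27), H2-Oa (-2.45 ± 0.24), H2-DMb2 (-2.34 ± 0.29) and H2-DMa (-2.13 ± 0.28), which edit and load peptides. H2-Ob signals were 20443, 22121 and 21814 in media and 2866, 2969 and 2800.4 with both agents. Ciita, the master regulator of class II genes, fell by 1.86 ± 0.40. The class II chains H2-Aa (-0.04) and H2-Ab1 (-0.33) and the invariant chain Cd74 (-0.22) did not pass the test, and H2-Ab1 was -0.60 and called without media replicate 3. These genes were chosen after their values were seen, and a difference between them was not tested.

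The 12 largest falls were Haao, Cnr2, Fcrla, Mxd4, Dennd1c, Arhgef18, Rasgrp2, Stk10, Cerk, Cd79b, Ets1 and Sbk1. Haao, an enzyme of tryptophan breakdown, had 5092, 5567 and 6664 in media and 156, 52.1 and 107 with both agents and fell by 5.65 ± 0.73. The cannabinoid receptor Cnr2, which helps position B cells in the marginal zone, went from 6008, 4508 and 4541 to 221, 50.6 and 35.8 and fell by 4.74 ± 0.44. In both genes at least 1 combination array was below the 75.1 units added. Rasgrp2, an activator of the small GTPase Rap1 (-4.23 ± 0.34), the kinase gene Stk10 (-4.18 ± 0.52), the kinase gene Sbk1 (-3.96 ± 0.32) and the ceramide kinase Cerk (-4.05 ± 0.34) fell. Dennd1c (-4.40 ± 0.32) and Arhgef18 (-4.25 ± 0.33), exchange factors for small GTPases, were -2.55 and -1.81 as the mean of their probe sets.

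Genes that keep lymphocytes at rest fell in 19 of 25 cases and rose in 2 (the same counts with the labelled kit), with a median of -1.65. Mxd4, a repressor that competes with Myc for its partner Max, had 3401, 2654 and 7275 in media and 719, 296 and 88 with both agents, opposite to the rise of Myc. It fell by 4.45 ± 0.50, with -2.77 as the mean of its probe sets. Klf2, a factor of lymphocyte quiescence and homing, fell by 2.79 ± 0.33, and so did Ccng2 (-3.39 ± 0.37) and Ypel3 (-2.97 ± 0.29). The cell cycle inhibitor Cdkn1b (-2.11 ± 0.40) and the glucose uptake brake Txnip (-2.16 ± 0.33, -1.42 with the labelled kit) fell. Ccr7, the receptor that draws B cells to the T cell zone, rose (1.49 ± 0.24, 0.99 with the labelled kit and 0.86 without media replicate 3), and on arrays labelled Enzo alone it was 0.41 and not called.

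Ribosome biogenesis was the list in which every tested member rose, 33 of 33, also with the labelled kit, with a median of 1.71. With quantile normalization 32 rose, and 3 members, Polr1a, Heatr1 and Ubtf, had another probe set that went the opposite way. Rrp9, a protein of the small subunit processome, had 3606, 2253 and 2944 in media and 25526, 20642 and 24404 with both agents and rose by 2.71 ± 0.23. Rrp1b rose by 2.67 ± 0.27, the RNA polymerase I subunit Polr1b by 2.35 ± 0.21 and the nucleolar chaperone Nolc1 by 2.32 ± 0.27. The smallest rise of the list was that of Npm1, 0.70 ± 0.17, which was 0.49 and not called without media replicate 3. The Myc-binding E-box CACGTG was in 7.15% of promoter windows and in 8.09% of genes, and in 5 of the 29 members in the table (Nop2, Utp20, Pes1, Rrn3 and Wdr43), and a match does not show binding. Nop2, an rRNA methyltransferase gene that rose by 1.80 ± 0.18 from 5631, 6047 and 4952 to 22700.4, 19726 and 22816, is shown as an example at chr6:125131633-125131882 on the plus strand, with the E-box at -60.
Nop2: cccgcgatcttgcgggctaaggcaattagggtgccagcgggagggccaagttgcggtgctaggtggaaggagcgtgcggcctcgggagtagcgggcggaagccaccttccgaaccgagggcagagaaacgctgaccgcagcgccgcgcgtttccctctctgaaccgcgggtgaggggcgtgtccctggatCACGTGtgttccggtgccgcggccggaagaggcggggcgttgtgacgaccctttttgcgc

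Further lists of growth genes held more rises than falls. Of 18 genes listed here as translation factors 14 rose, with a median of 1.0, among them Eef1e1 (2.53 ± 0.19) and the cap-binding protein Eif4e (1.73 ± 0.18). Aminoacyl-tRNA synthetases rose in 14 of 19 and fell in 1 (15 and 0 with the labelled kit, and 0 lower without media replicate 3 or anti-IgM+CpG replicate 3), with Kars at 1.47 ± 0.16 and Tars at 1.38 ± 0.16. Heat shock proteins and chaperonins rose in 18 of 21, with a median of 1.08, among them the mitochondrial chaperonin Hspd1 (1.44 ± 0.16) and Hsph1 (1.63 ± 0.18). Proteasome subunits rose in 17 of 25 (19 with the labelled kit), by up to 1.23 ± 0.18 for Psma4, while the immunoproteasome subunits Psmb8 (-0.32) and Psmb10 (-0.66) did not pass the test. Without anti-IgM+CpG replicate 1 both were called, at -0.62 and -1.06, and were lower. With all arrays no member of the translation, chaperone and proteasome lists fell.

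Nucleotide synthesis genes rose in 16 of 20 cases and fell in 2 (17 and 2 with the labelled kit), with a median of 1.01. Ctps, which makes CTP, had 6472, 8049 and 5099 in media and 26548, 27765 and 30081 with both agents and rose by 2.11 ± 0.18. Umps of pyrimidine synthesis rose by 1.83 ± 0.19 (1.03 as the mean of its probe sets), and Gart and Ppat of purine synthesis by 1.55 ± 0.24 and 1.53 ± 0.15. As the mean of their probe sets Gart was 0.85 and Ppat 0.81, the latter not called, and Gart was 1.02 without media replicate 3. The members that fell were Tk1 (-1.68 ± 0.46) and Rrm2 (-2.05 ± 0.67), which supply deoxynucleotides in S phase, and neither was called without media replicate 3 (-1.01 and -0.68). Rrm2 was not called either without anti-IgM+CpG replicate 2 (-1.54), without replicate 3 (-1.68) or as the mean of its probe sets (-1.74). Amino acid transport and one-carbon genes rose in 15 of 23 and none fell (18 and 1 with the labelled kit, and 1 lower without anti-IgM+CpG replicate 1), led by the serine enzyme Shmt1 (2.91 ± 0.19) and the transaminase Bcat1 (2.84 ± 0.21). Shmt1 went from 1293, 1666 and 1011 to 8296, 9977 and 10599.8. Cholesterol synthesis genes rose in 10 of 20 and fell in 1 (13 and 0 with the labelled kit), with Sqle at 1.78 ± 0.19 and Idi1 at 1.48 ± 0.18.

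Glycolysis genes rose in 8 of 18 cases and fell in 3 (11 and 5 with the labelled kit). Hexokinase 2, Hk2, had 3098, 2491 and 2239 in media and 15449.8, 14106 and 14596 with both agents and rose by 2.55 ± 0.15, Pfkp by 1.31 ± 0.20 and lactate dehydrogenase Ldha by 1.11 ± 0.19. The glucose transporters differed, with Slc2a3 at -0.94 ± 0.17, a fall, and Slc2a1 at 0.22, not called. Slc2a3 was -0.63 and not called as the mean of its probe sets, and Slc2a1 was 0.49 and called with the labelled kit (limma adjusted p = 0.0351). Oxidative phosphorylation genes rose in 9 of 27 and fell in 1, against 17 and 0 with the labelled kit. Without media replicate 3, 3 rose, and no member fell when media replicate 2 or 3 or anti-IgM+CpG replicate 2 or 3 was left out. Their median was 0.27, and no member rose by more than Uqcrfs1 (0.93 ± 0.14).

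**Figure D4:**
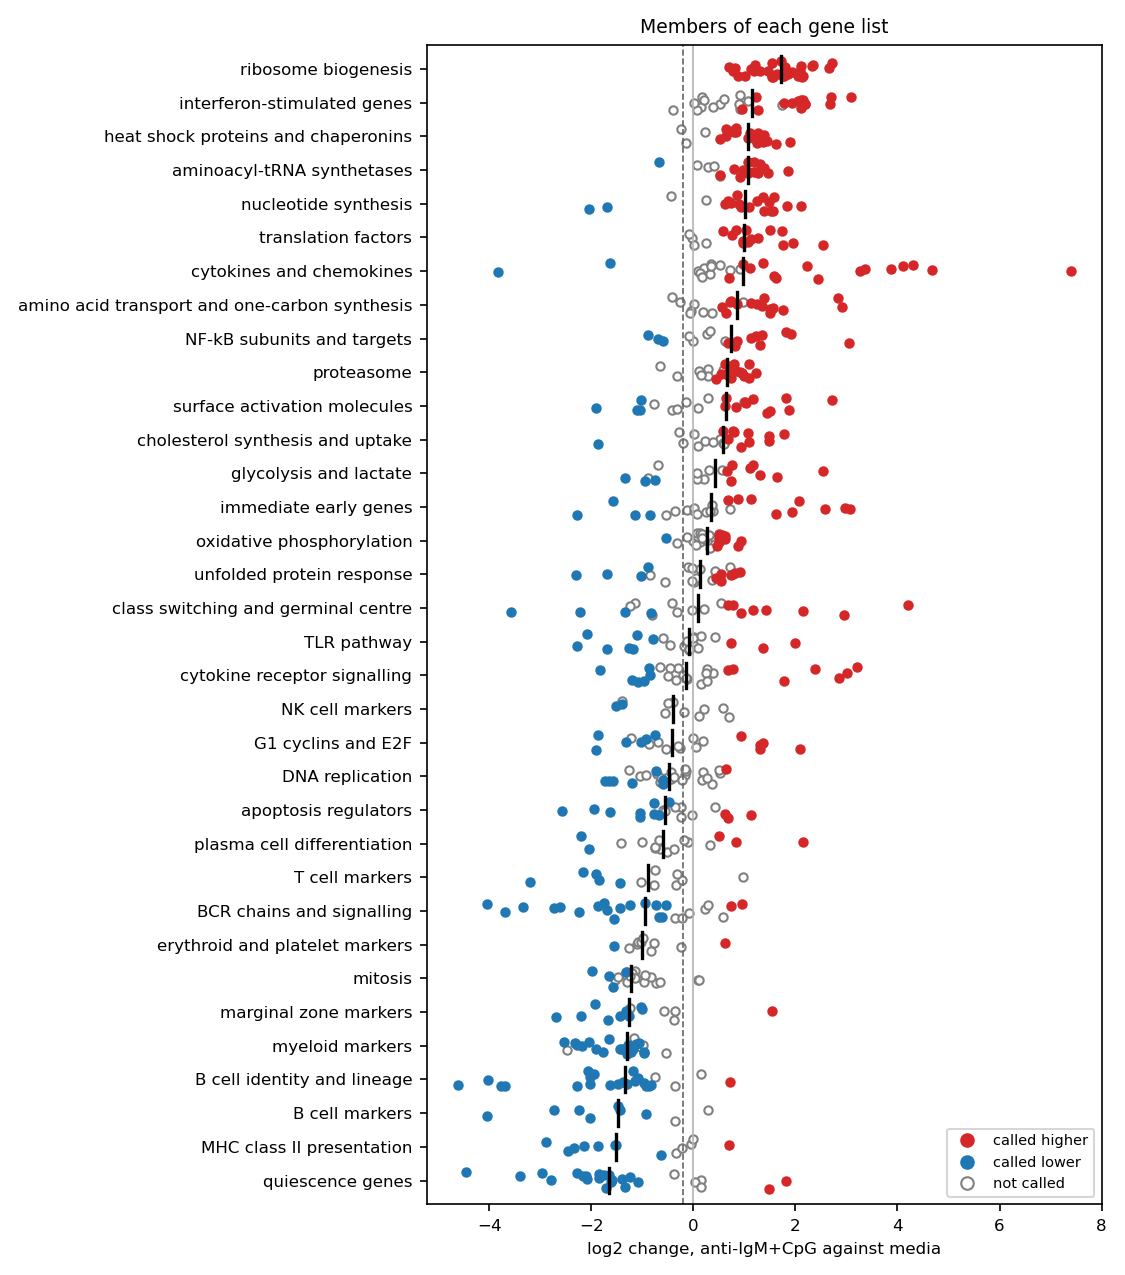
Log2 change of every tested member of each gene list but the sex-linked one in anti-IgM+CpG against media, lists ordered by their median (black bar); red points rose, blue points fell and open points were not called, and the dashed line is the median of all genes, -0.20. Ribosome biogenesis stands at the top with all 33 members to the right of 0, and the quiescence list lies at the bottom.

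Counts of cell division genes depended on single arrays. Among G1 cyclins and E2F factors 5 of 20 rose and 6 fell (4 and 9 with the labelled kit), beside 14.2% and 18.7% of all genes. Without media replicate 3, 3 rose and 2 fell. Cyclin D2, Ccnd2, had 10938, 10511 and 5987 in media and 36825, 41577 and 40117 with both agents and rose by 2.10 ± 0.29, and its kinase Cdk4 rose by 1.30 ± 0.17. The G1 gatekeeper Rb1 fell by 1.91 ± 0.18, with -0.85 as the mean of its probe sets. DNA replication genes rose in 1 of 28 cases and fell in 7, with a median of -0.48, and with the labelled kit 4 rose and 4 fell with a median of 0.02. Without anti-IgM+CpG replicate 1, 15 of the replication genes fell, and without media replicate 3 or either of the other combination arrays 4 fell. The count of replication genes that rose was 2 without media replicate 1 and 3 without anti-IgM+CpG replicate 2. Mitosis genes fell in 4 of 24, beside 18.7% of all genes, and none rose (6 and 0 with the labelled kit), with a median of -1.22. Without anti-IgM+CpG replicate 1, 22 of the 24 fell. Without media replicate 3 none did, and 1 did without anti-IgM+CpG replicate 2 or without replicate 3. Their combination arrays were uneven: the proliferation marker Mki67 had 14854, 11563 and 29953 in media and 22855, 2472 and 3397 with both agents, replicate 1 far above the others, and changed by -1.31 ± 0.67, not called. Mki67 was called with the labelled kit (-1.56, limma adjusted p = 0.043) and without anti-IgM+CpG replicate 1 (-2.30), which also had the highest myeloid sum of the combination arrays.

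Of 19 tested cell survival genes, 3 were higher and 9 lower (4 and 8 with the labelled kit), beside 14.2% and 18.7% of all genes. Without anti-IgM+CpG replicate 3, 5 were lower, and 3 when arrays were shifted to one median. The antiapoptotic Bcl2l1 rose by 1.12 ± 0.26, and was 0.32 and not called as the mean of its probe sets. The death effectors Casp9 (-1.94 ± 0.26) and Bmf (-2.57 ± 0.36) fell, Bmf being -1.02 and not called as the mean of its probe sets. Antiapoptotic Bcl2 (-0.59) did not pass the test, and was called at -1.03 without media replicate 3 and at -0.73 without anti-IgM+CpG replicate 1.

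Of 20 genes of class switching and the germinal centre, 8 rose and 4 fell (the same counts with the labelled kit), and 7 fell without anti-IgM+CpG replicate 1. Besides Tbx21, the AP-1 partner Batf, required for class switching, had 1914, 2229 and 3394 in media and 14764, 21848 and 20299.9 with both agents and rose by 2.96 ± 0.26. Irf4, which drives both switching and plasma cell fate, rose by 2.16 ± 0.19 (1.32 as the mean of its probe sets), and Ung, the uracil glycosylase of switching, by 1.43 ± 0.20. Id3 (-3.58 ± 0.33), Mef2c (-2.21 ± 0.24) and Bcl6 (-1.33 ± 0.18, -0.82 with the labelled kit), the germinal centre master regulator, fell. With no labelling term Bcl6 was not called. Of 16 plasma cell genes, 3 rose and 2 fell (3 and 4 with the labelled kit), beside 14.2% and 18.7% of all genes. The count of plasma cell genes that fell was 4 without media replicate 1, 1 without media replicate 3 and 5 without anti-IgM+CpG replicate 1. Prdm1 (-0.52) and Xbp1 (-0.66), the plasma cell regulators, did not pass the test. Prdm1 was -0.76 and called with the labelled kit, and Xbp1 -1.05 and called without anti-IgM+CpG replicate 1. Unfolded protein response genes rose in 7 of 23 and fell in 4 (9 and 4 with the labelled kit), beside the same shares of all genes. Of this list 4 rose without anti-IgM+CpG replicate 1 and 2 fell without media replicate 3. Its members Dnajb11 and the stress kinase Eif2ak3 changed by 0.91 ± 0.22 and -1.70 ± 0.25.

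The combination was then set against each agent alone, in the same fit over all 15 arrays. The 2 comparisons share the 3 anti-IgM+CpG arrays, so their values are given side by side. Against anti-IgM alone, 171 genes were higher with both agents and 336 lower, 507 or 3.85% in all (1.3% higher and 2.55% lower), and 1194 (9.07%) with the labelled kit. Against CpG alone, 158 were higher and 188 lower, 346 or 2.63% (1.2% and 1.43%), and 596 (4.53%) with the labelled kit. Counts without anti-IgM replicate 3 and CpG replicate 3, the only low-ratio arrays of those groups, were 151 and 179. On low-ratio arrays alone 8 and 13 genes were called, in a fit with 1 array of each single agent that is assumed to vary like the 3 combination arrays. With only the groups compared and the labelling class kept, the counts were 40 and 84.

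Against anti-IgM alone the genes that were higher included cytokines, T-bet and a cytokine feedback inhibitor. Ifng was higher by 5.74 ± 0.90 (limma adjusted p = 0.00167), where the anti-IgM arrays had 394, 273 and 109. It was 5.1 and not called with only the groups compared and the class kept. Ifng was not called either with the replicate number as a block beside the class. Il6 was higher by 3.97 ± 0.36, Tbx21 by 3.81 ± 0.53, Serpinb9b by 3.55 ± 0.30 and Socs3 by 3.43 ± 0.18. The Il6 signals with anti-IgM alone were 767, 243 and 344. Groups that did not overlap were a condition for naming these genes. Of the NF-kB list 7 of 18 were higher and none lower (8 and 0 with the labelled kit), of cytokines 7 of 27 higher and 2 lower (9 and 2), and of the cytokine receptor list 7 of 26 higher and none lower (4 and 0 with the labelled kit), beside 1.3% higher over all genes. The higher counts were 6 to 8, 7 to 8 and 6 to 7 with 1 array left out, while no cytokine was lower without anti-IgM replicate 2. Lower with both agents were the detoxifying enzyme Ephx1 (-3.30 ± 0.32), Fcmr (-3.26 ± 0.27), the proton channel Hvcn1 (-2.74 ± 0.40), Fcrla (-2.51 ± 0.27) and the G protein regulator Rgs2 (-2.42 ± 0.24). Fcrla was -1.58 with the labelled kit. Ribosome biogenesis had 0 of 33 members called by limma here, and 10 higher with the labelled kit. At an unadjusted limma p under 0.05 were 12 of the 33, beside 2002 of all 13159 genes. Of 24 immediate early genes 3 were higher and 7 lower than with anti-IgM alone (1 and 10 with the labelled kit), beside 1.3% and 2.55% of all genes. With 1 array left out, 1 to 2 of them were higher and 3 to 8 lower.

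Against CpG alone 11 of 24 immediate early genes were higher and 1 lower (8 and 3 with the labelled kit), beside 1.2% higher over all genes. Xcl1 was higher by 4.27 ± 0.34 (limma adjusted p = 3.96e-06), with 1205, 775 and 543 on the CpG arrays. The ligand-activated transcription factor Ahr was higher by 3.09 ± 0.27 (1.97 as the mean of its probe sets), the G protein regulator Rgs16 by 2.98 ± 0.38, Bex1 by 2.95 ± 0.35 and the protease inhibitor Cst7 by 2.88 ± 0.21. Rgs16 (3.35) and Bex1 (2.79) were not called with only the groups compared and the class kept. Ebi3, a subunit of IL-27 and IL-35, changed by -2.80 ± 0.25 and was lower with both. Its signals were 19460.2, 15364 and 22023 with CpG alone and 2139.5, 2843 and 3225 with both agents. Media had 1622, 1238 and 2029.5, so CpG alone stood far above media and the combination. Ly6d (-2.48 ± 0.34), Wfdc21 (-2.46 ± 0.29), Dennd3 (-2.42 ± 0.20) and the low-affinity IgE receptor Fcer2a (-2.42 ± 0.37) were lower too, Fcer2a being -2.71 and not called with only the groups compared and the class kept. Of B cell identity genes 8 of 24 were lower and 2 higher (7 and 3 with the labelled kit), and 1 was higher without CpG replicate 3. Of interferon-stimulated genes 0 of 28 were called by limma (1 higher with the labelled kit). At an unadjusted limma p under 0.05 were 3 of the 28, beside 1535 of all 13159 genes.

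**Figure D5:**
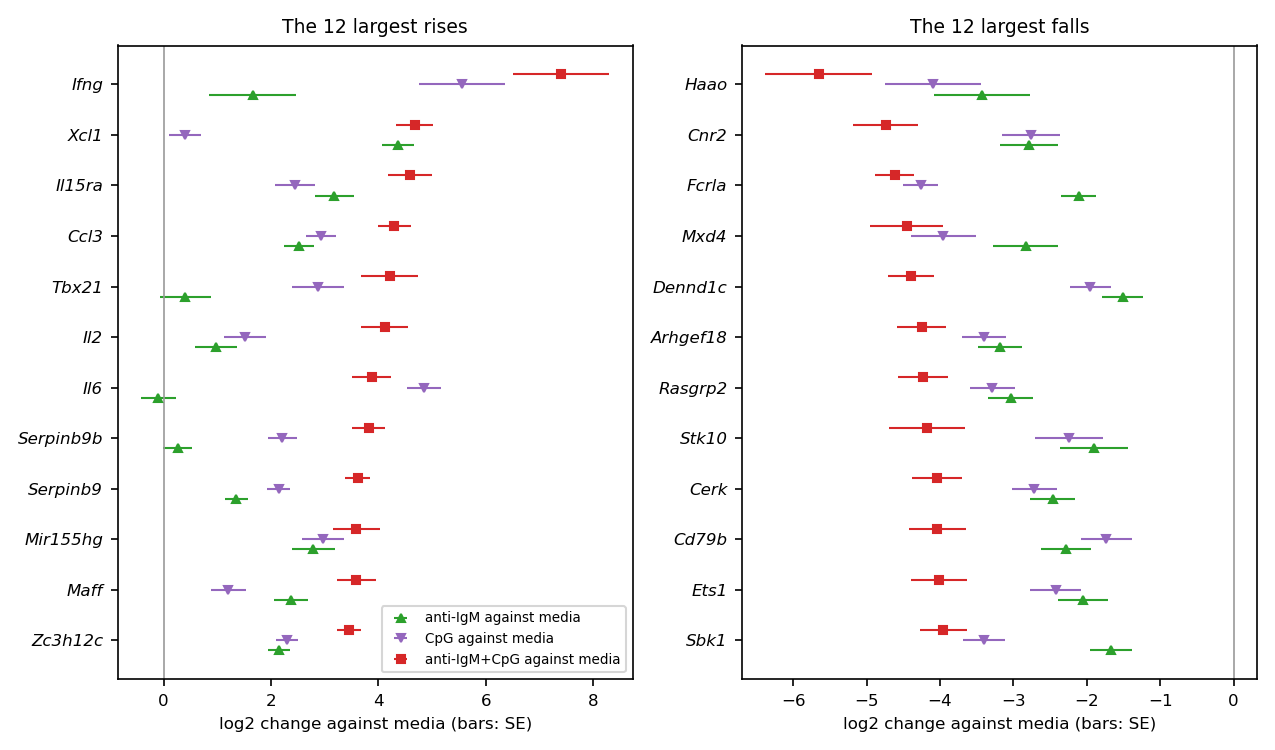
Log2 change against media ± SE of the 12 largest rises (left) and the 12 largest falls (right) for anti-IgM alone (green triangles), CpG alone (purple triangles) and both agents (red squares); all 3 comparisons use the same media arrays. With both agents Xcl1 is at 4.67, close to its value with anti-IgM alone, and Ifng at 7.40, nearer to its value with CpG alone.

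Set side by side, the members fell into different orders. Against media, Xcl1 changed by 4.37 with anti-IgM, 0.40 with CpG and 4.67 with both. Ifng changed by 1.66, not called, 5.56 and 7.40. Serpinb9 changed by 1.35, 2.15 and 3.61. The 3 values of each gene rest on the same media arrays.

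With the beta-actin class as the term, 25 genes (0.19% of those tested) were higher with both agents than in media, with anti-IgM and with CpG, 14 of them also with the labelled kit. These comparisons share the anti-IgM+CpG arrays, so the count describes these arrays and was not tested as an overlap. The 14 included Serpinb9, Zc3h12c, Shmt1, Nfkbib, Cst7, the lipase Lipg, the scramblase Plscr1 and Tnfsf14, a ligand of the TNF family. Serpinb9 had 6074, 4927 and 3717 with anti-IgM and 10267, 6353 and 9035 with CpG alone, and was higher with both by 2.26 ± 0.24 and 1.47 ± 0.24, the latter 1.13 and not called with only the groups compared and the class kept. Against CpG, Serpinb9 was not called either with the replicate number as a block beside the class. Lipg went from 533, 881 and 662 in media, 1665, 1611 and 1072 with anti-IgM and 2268, 1727 and 903 with CpG to 4292, 3841 and 6022 with both. The combination arrays of both genes lay above all 9 arrays of these 3 groups. Il2, Myc, Ccl3, Cd274 and Stat5a were among the 11 not called in all 3 comparisons with the labelled kit.

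A further 27 genes (0.205%) were lower with both agents than in each of the 3 groups, 18 of them also with the labelled kit. These 18 included Cd79b, Ets1, Bank1, Klf2, Cnr2, Dennd1c, Cerk, the proapoptotic Bcl2l11, the macrophage receptor gene Csf1r and Xist. Cd79b had 13635, 9923 and 26987 with anti-IgM and 18502, 25153 and 24569.8 with CpG, and changed by -1.75 ± 0.39 and -2.30 ± 0.39 in the combination against them. Against anti-IgM, Cd79b was not called without anti-IgM replicate 3 (-1.36), without anti-IgM+CpG replicate 2 (-1.59) or without replicate 3 (-1.70). The same held with the replicate number as a block beside the class. Bank1 had 18061, 20329 and 27774 in media, 4114, 4894 and 4955 with anti-IgM, 5961, 6079 and 7579 with CpG and 3331, 1432 and 1386 with both. Csf1r is a myeloid marker and Xist the sex-linked RNA that set these arrays apart at the start.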

How the data were processed

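RNA of AM-14 B cells was measured on 15 Affymetrix mouse arrays, 1 per sample, in 5 groups of 3. The values deposited by the authors are MAS5 signals per the submitters' processing notes, a linear intensity for each probe set, with no version given. Among 45037 probe sets, 34945 carry a single gene symbol, 932 carry several and 9160 are unnamed here, and 34741 could be matched to RefSeq. The tests used single-symbol probe sets and not the 64 controls. For 18193 genes the brightest probe set on average was kept. A gene was tested where at least 3 of 15 arrays reached their array's median signal, which left 13159. To each signal 75.1 (the 20th percentile over all arrays) was added before taking log2.

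One model with the 5 groups and the beta-actin labelling class was fitted over 15 arrays with limma 3.58.1 in R 4.3.3 (lmFit, eBayes with an intensity trend, 9 residual degrees of freedom, two-sided, Benjamini-Hochberg adjusted over 13159 genes, called under 0.05). With 3 arrays per group an exact permutation test cannot give a p below 0.1, and precision is limited by the number of arrays. The procedure was tested on simulated data. Figures were drawn with matplotlib 3.10.9. Genes named by size were the 12 largest rises and falls, and 5 each way against single agents, with groups that did not overlap, calls with both labelling terms, the same sign without a term and no probe set of opposite direction. Up to 4 genes per list were named the same way, and other list members were named after their values were seen. The members and all 35 lists (749 genes, 687 tested) were chosen with earlier results of these data known. Deviations from group means correlated at -0.194 to 0.074 between anti-IgM+CpG arrays and same-numbered arrays of the other 4 groups, and at 0.121 to 0.684 among those other groups. Among those other groups replicate 3 is the only low-ratio array, so these correlations also hold the labelling class. They do not show pairing by number alone. Media replicate 2 correlated at 0.237 with CpG replicate 1 and at 0.166 with CpG replicate 2. All combination arrays have a low ratio, so their correlations do not show a lack of pairing. The main fit has no replicate block, and counts with a block are given below. The alternatives covered the labelling term, normalization, pseudocount, filter, probe set rule, trend, fold minimum, arrays used and each array left out. The genome build behind the array annotation was not given in the sources used here, and promoter and microRNA coordinates are those of RefSeq on GRCm38.p6.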

Additional observations from a re-analysis of the deposited data

How the results depend on the processing

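Against media, 4324 genes were called, 2265 on arrays with a low beta-actin ratio alone, 474 with a 2-fold minimum and 2869 to 4546 with 1 array left out, the lowest without media replicate 3. Against anti-IgM, 507 genes became 1194 with the labelled kit, 8 on low-ratio arrays, 1837 on arrays labelled Enzo, 40 and 265 with the compared groups only (with and without the labelling class), 335 with quantile normalization, 317 without a trend, 18 with a 2-fold minimum and 151 to 739 with 1 array left out, including 325 without anti-IgM+CpG replicate 2 and 290 without replicate 3. Against CpG, 346 genes became 596 with the labelled kit, 220 with no labelling term, 13 on low-ratio arrays, 1327 on Enzo arrays, 84 and 162 with the compared groups only, 224 without a trend, 20 with a 2-fold minimum and 179 to 478 with 1 array left out, the lowest without CpG replicate 3. With the replicate number as a block in place of the labelling class 5540, 1213 and 613 genes were called against media, anti-IgM and CpG, and with the block beside the class 3204, 175 and 170. Low-ratio arrays and the compared groups leave fewer arrays in the fit, and for the other settings the cause was not tested. Quantile normalization moved the median change against media from -0.20 to -0.01 and the share of called genes that were higher to 49.7%. Of 131 genes given as called against media 85 were called under every alternative tried for them, of 12 against anti-IgM 4 and of 12 against CpG 2. With the block beside the class, Ifng and Cd79b against anti-IgM and Serpinb9 against CpG were not called. Egr1, not called with the class, was called lower (-0.577) on arrays labelled Enzo. Counts of list members that rose or fell against media moved by over 1.5 times for 36 of 70 on low-ratio arrays, 17 without media replicate 3, 15 with the labelled kit and 10 without anti-IgM+CpG replicate 1. Changes of dim genes such as Ifng depend on the 75.1 units added.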
